A study of Mus musculus with 6 samples.

Results

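The CARD9 complex and the NF-kB family are followed here through 10 genes in bone marrow monocytes of *Syk*-deleted and *Syk*-intact mice. They are the adaptor gene *Card9* with its partners *Bcl10* and *Malt1*, the 5 subunit genes *Nfkb1*, *Nfkb2*, *Rel*, *Rela* and *Relb*, and the inhibitor genes *Nfkbia* and *Nfkbie*. The members were taken by name from the 49585 rows of the table, each had 1 row, and all 10 were among the 14023 genes tested. The mice were *Sykdel/del* *Rosa26CreER(T2)+/+* (3 libraries) and *Syk+/+* *Rosa26CreER(T2)+/+* (3 libraries), so the tamoxifen-inducible Cre, driven in all tissues, is carried by both. The floxed *Syk* gene was deleted in the whole animal by oral tamoxifen, 200 mg/kg on 3 consecutive days at an age of 7 to 8 weeks, and the sources used here do not say whether the *Syk+/+* mice received it. The mice were of the C57BL/6J strain, ate a high-fat diet from an age of 8 weeks, and were sampled after 8 weeks of it according to the submitters. The study's figure legend counts its RNA-seq replicates per group of mice, and the labels call each sample a triplicate. Neither says that each library came from a separate mouse, so p-values measure the spread between these libraries, which may be technical.

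In myeloid cells, SYK sits below receptors that sense fungal sugars, dead cells and antibody complexes. Active SYK, through protein kinase C delta, opens the adaptor CARD9, which nucleates filaments of BCL10 with the paracaspase MALT1. This complex switches on the IKK kinases, which mark IkB proteins for destruction and so free NF-kB dimers to enter the nucleus. NF-kB in turn induces several of its own genes, among them those for IkB-alpha, p100 and RELB, as feedback. Much of this regulation acts on proteins, which RNA levels do not measure.

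None of the 10 genes passed the test between genotypes. By limma fitted across all genes, 0 of 10 had an adjusted p under 0.05, where 0.371% of all tested genes did (0.349% lower and 0.0214% higher), and limma-voom on the recovered reads called 0 as well. At an unadjusted p under 0.05 there were 2 of the 10, *Nfkb2* and *Nfkbia*, both lower in *Sykdel/del*, beside 5.26% of all genes (3.32% lower and 1.94% higher). That count was 4 without *Syk+/+* replicate 1 and 1 without *Syk+/+* replicate 2 or *Sykdel/del* replicate 1. The mean log2 value was lower in *Sykdel/del* for 9 of the 10, and for 49.7% of all genes. The 9 include *Malt1* (-0.00067), *Rel* (-0.018) and *Rela* (-0.076), which changed sign under 9, 4 and 1 of 18 other ways of processing. *Sykdel/del* replicate 1 was the lowest library for 6 of the 10, and the share of all genes lowest in it was not counted. The log2 fold changes ran from -0.48 for *Nfkbia* to 0.11 for *Bcl10*, with a median of -0.09 against 0.00 over all genes tested. *Nfkb1* and *Nfkb2*, 2 of the 10, had genotypes that did not overlap, as did 10.1% of all genes (5.19% lower and 4.94% higher). The 95% confidence intervals of all 10 lay within 1 of 0 on the log2 scale, and those of 6 within 0.5.

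**Figure D1:**
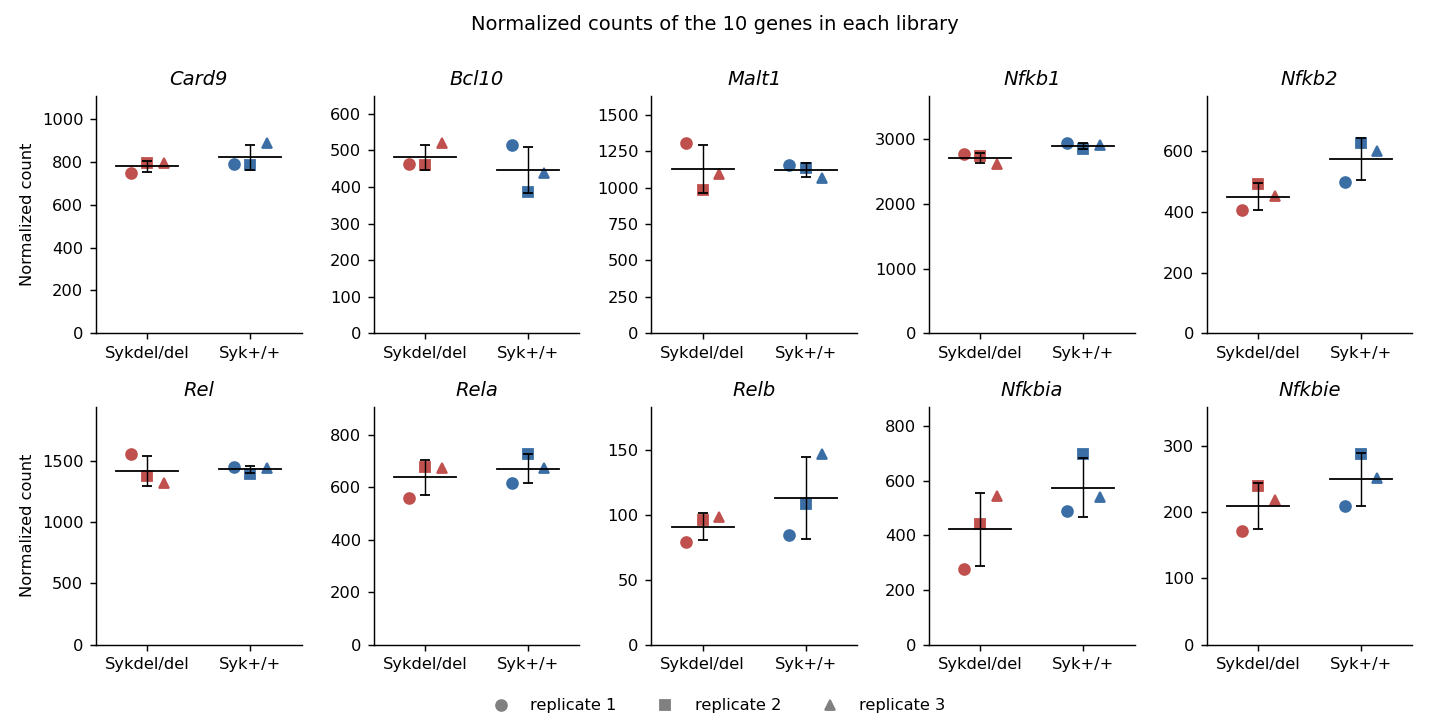
Normalized count (vertical axes, from 0, one scale per gene) of the 10 genes in the 3 *Sykdel/del* and 3 *Syk+/+* libraries, with the mean as a line and the SD as an error bar. Every point of *Nfkb1* and *Nfkb2* in *Sykdel/del* lies below every point in *Syk+/+*, and in the other 8 genes the genotypes overlap.

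The libraries were sequenced at unequal depth and 1 stood furthest apart. Reads assigned to genes ranged from 4168626 to 6254375 in *Sykdel/del* and from 6805111 to 7071823 in *Syk+/+*. Values are normalized counts, the reads of a gene times 1 factor per library and not divided by gene length, and the 10 genes rested on 63 to 3156 reads each per library. *Sykdel/del* replicate 1 differed most from the others of its genotype (chi-square per degree of freedom 10.7 and 12.1, against 2.46 between the other pair). Within *Syk+/+* that value was 7.94 and 6.21 for the pairs with replicate 1 and 3.85 for the other pair. *Syk* itself was at 4794, 5094 and 4712 normalized counts in *Sykdel/del* and 4463, 5527 and 5427 in *Syk+/+*, a level that does not check the deletion, since exons that remain can still be counted. Markers of classical monocytes, 12 genes, summed to 219763 to 236265 normalized counts in *Sykdel/del* and 188943 to 209547 in *Syk+/+*. None of them passed. The sum rests largely on *Fn1*, which averaged 94839 in *Sykdel/del* and 81746 in *Syk+/+*, and *Lyz2*, at 65158 in *Sykdel/del* and 58064 in *Syk+/+*. Log2 fold changes were above 0 for 10 and below 0 for 2, *Csf1r* (-0.25) and *Fcgr1* (-0.33). Of 9 B cell markers 4 had at most 3 reads in every library, *Ms4a1* and *Pax5* among them, none passed, and the list summed to 79.8 to 123 normalized counts in *Sykdel/del* and 114 to 131 in *Syk+/+*. None of 7 plasma cell markers passed either, but 3 were higher at an unadjusted p under 0.05 (1.94% of all genes were). The list summed to 1975 to 2096 normalized counts in *Sykdel/del* and 1574 to 1868 in *Syk+/+*. *Jchain*, which encodes the joining chain of secreted antibodies, averaged 486 normalized counts in *Sykdel/del* and 253 in *Syk+/+*. All 8 erythroid markers had log2 fold changes below 0 and none passed, with sums of 162 to 340 normalized counts in *Sykdel/del* and 195 to 569 in *Syk+/+*. Of 16 markers of non-classical monocytes 10 were lower (0.349% of all genes were) and none higher. Their sums were 11561 to 13808 normalized counts in *Sykdel/del* and 17280 to 23813 in *Syk+/+*. The marker lists were chosen with earlier results of these data known, so such counts are not an independent measure of cell types. Of 11 markers of resident macrophages 1 was lower (0.349% of all genes were) and none higher. All 11 had log2 fold changes below 0, with a median of -0.82. At an unadjusted p under 0.05, 8 of them were lower (3.32% of all genes were). Their sum was 2030 to 2427 in *Sykdel/del* and 2785 to 3023 in *Syk+/+*. The sum of 21 immediate early genes, which respond within minutes to handling and stimulation, was 15408 normalized counts in *Sykdel/del* replicate 1, against 39526 and 41413 in the other *Sykdel/del* libraries and 22088 to 35050 in *Syk+/+*. These marker calls are among 52 genes that passed in all, a count that became 4 when *Syk+/+* replicate 2 was left out, 5 with *Syk+/+* replicate 1 left out, and 18 with *Sykdel/del* replicate 2 left out. The part of these differences in the results below was not tested, and in bulk RNA fewer cells of a type and less RNA per cell cannot be told apart.

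The adaptor and its partners were counted at close levels in both genotypes. *Card9* encodes the caspase recruitment domain protein that couples SYK to NF-kB in myeloid cells, and lies on chromosome 2 of GRCm38 (26352176 to 26360918, minus strand). Its normalized count was 748, 795 and 796 in *Sykdel/del* and 792, 785 and 889 in *Syk+/+*. The *Sykdel/del* libraries were within 48 normalized counts of each other, and 2 of them lay inside the range of *Syk+/+*. The difference between genotypes was -0.07 on the log2 scale (standard error 0.09, 95% interval -0.27 to 0.12, adjusted p = 1.00 from limma), so a *Card9* level below 0.832 or above 1.08 times that of *Syk+/+* lies outside the interval. Exons of *Card9* overlap the annotated gene *Gm13562* on the other strand, and the strand setting of the authors' counting is not given in the sources used here.

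*Bcl10* encodes the filament-forming protein between CARD9 and MALT1 (chromosome 3, 145922804 to 145934356, plus strand). It was the 1 member with a higher mean log2 value in *Sykdel/del*. Its normalized count was 463, 460 and 520 in *Sykdel/del* and 513, 387 and 439 in *Syk+/+*. *Syk+/+* replicate 1 was nearly as high as the highest *Sykdel/del* library, and the genotypes overlapped. The log2 fold change of 0.11 (95% interval -0.13 to 0.36) shrank to 0.02 without *Syk+/+* replicate 2 and was 0.22 without *Syk+/+* replicate 1.

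*Malt1*, on chromosome 18, encodes the protease and scaffold of the complex. Its normalized count was 1305, 984 and 1092 in *Sykdel/del* and 1156, 1137 and 1069 in *Syk+/+*. The 2 extremes of the gene were both *Sykdel/del* libraries, replicate 1 at the top and replicate 2 at the bottom. The means were 1127 ± 163 in *Sykdel/del* and 1120 ± 45.9 in *Syk+/+* (SD, n = 3 each), with a log2 fold change of 0.00 to 2 decimals and a 95% interval of -0.23 to 0.23. Set against *Card9* in the same library, which removes the library factor, the log2 ratio of *Malt1* was 0.80, 0.31 and 0.46 in *Sykdel/del* and 0.54, 0.53 and 0.27 in *Syk+/+*, and that of *Bcl10* was -0.69, -0.79 and -0.61 in *Sykdel/del* and -0.62, -1.02 and -1.02 in *Syk+/+*. Both ratios overlapped between genotypes.

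**Figure D2:**
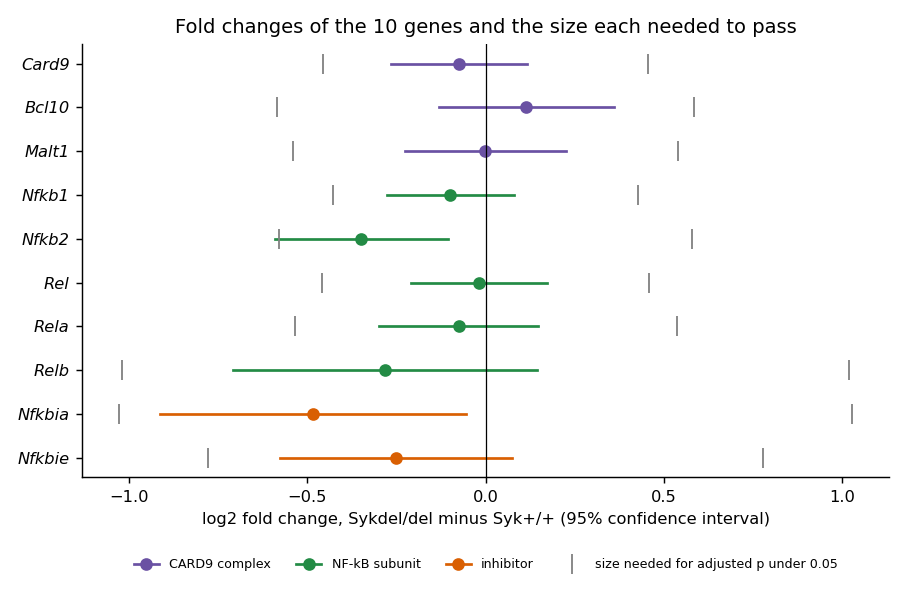
Log2 fold change, *Sykdel/del* minus *Syk+/+*, of the 10 genes (points) with 95% confidence intervals (lines), coloured by role. Grey ticks mark the size at which a gene of that spread would have reached the largest p called in the table; no point reaches its ticks, and the intervals of *Nfkb2* and *Nfkbia* leave out 0.

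Promoter sequence is shown for genes of the feedback loop, since NF-kB is known to act on several of its own promoters. RefSeq windows on GRCm38.p6, 250 bases before to 50 after each annotated start, were found for 7 of the 10 genes. The window set holds none for *Malt1*, *Nfkb1* and *Relb*. The 10-letter NF-kB consensus was searched on both strands, and matches that overlap were counted as 1 place. It was matched in a window of 5 genes, *Nfkb2*, *Nfkbia*, *Nfkbie*, *Rel* and *Bcl10*, and in none of *Card9* or *Rela*. Of all 32851 windows, from 27025 genes, 8.46% hold a match. That share counts windows and not genes, so it is not a like measure for the count of 5 genes. A match describes the letters only and is not evidence of binding. The last 120 bases before the start are printed 5′ to 3′ on the strand of the gene, with matches in capitals. *Card9* is shown as the member with no match, and *Rel* as one with a match.
Nfkb2 (chr19:46304617-46304736, plus strand): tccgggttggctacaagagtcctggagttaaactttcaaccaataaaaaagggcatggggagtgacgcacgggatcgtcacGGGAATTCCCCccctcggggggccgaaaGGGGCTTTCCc
Nfkbia (chr12:55492648-55492767, minus strand): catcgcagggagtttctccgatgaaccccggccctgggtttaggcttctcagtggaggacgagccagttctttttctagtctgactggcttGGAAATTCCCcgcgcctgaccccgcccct
Nfkbie (chr17:45555580-45555699, plus strand): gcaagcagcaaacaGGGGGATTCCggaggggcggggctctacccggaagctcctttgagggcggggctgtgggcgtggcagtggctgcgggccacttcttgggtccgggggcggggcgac
Rel (chr11:23770970-23771089, minus strand): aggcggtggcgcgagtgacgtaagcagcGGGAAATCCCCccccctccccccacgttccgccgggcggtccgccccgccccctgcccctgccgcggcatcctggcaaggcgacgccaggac
Card9 (chr2:26360910-26361029, minus strand): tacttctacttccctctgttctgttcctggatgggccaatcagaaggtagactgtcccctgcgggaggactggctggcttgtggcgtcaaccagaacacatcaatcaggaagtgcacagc
In *Nfkb2* the 2 places begin 39 and 11 bases before the start, in *Nfkbia* the place begins 29 bases before it, in *Nfkbie* 106 and in *Rel* 92. *Nfkb2* has 2 further windows at later starts, each with a match, and these windows overlap and share a place.

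Of the subunits, *Nfkb2* had the lowest p of the 10 genes. It encodes p100, which is cut to p52 in the non-canonical pathway and partners RELB (chromosome 19, 46304320 to 46312385, plus strand). Its normalized count was 407, 494 and 453 in *Sykdel/del* and 498, 627 and 602 in *Syk+/+*. Every *Sykdel/del* library lay below every *Syk+/+* library, but only just, at 494 for the highest *Sykdel/del* library and 498 for the lowest of *Syk+/+*. The mean was 451 ± 43.4 in *Sykdel/del* and 575 ± 68.6 in *Syk+/+* (SD, n = 3 each), 0.786 times the *Syk+/+* level (95% interval 0.664 to 0.929). The log2 fold change of -0.35 (standard error 0.11) had an unadjusted p of 0.0084 and an adjusted p of 0.491 from limma. It stood at place 239 of 14023 genes in order of p, and a log2 change of 0.58 would have been needed to pass at its spread. Without *Sykdel/del* replicate 1 the log2 fold change was -0.28, and exons of *Nfkb2* overlap *Psd* and *AC114539.1* on the other strand.

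*Nfkb1* encodes p105, the precursor of p50, a DNA-binding subunit of the canonical dimers (chromosome 3, 135584655 to 135691547, minus strand). It was at 2766, 2744 and 2616 normalized counts in *Sykdel/del* and 2939, 2851 and 2912 in *Syk+/+*. The genotypes did not overlap, yet the gap was small and the gene had the narrowest interval of the 10. Its log2 fold change was -0.10 (95% interval -0.28 to 0.08, unadjusted p = 0.251 and adjusted p = 1.00 from limma). The mean of *Sykdel/del* was 0.934 times that of *Syk+/+*.

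*Rela* and *Rel* encode the transactivating subunits p65 and c-REL. *Rela* (chromosome 19, 5637483 to 5648130, plus strand) was at 561, 678 and 676 normalized counts in *Sykdel/del* and 616, 726 and 673 in *Syk+/+*. *Sykdel/del* replicate 1 was the lowest library and the other *Sykdel/del* libraries lay within the range of *Syk+/+*, and the log2 fold change of -0.08 (95% interval -0.30 to 0.15) was 0.01 without replicate 1. *Rel* (chromosome 11, 23736847 to 23770970, minus strand) was at 1553, 1374 and 1319 normalized counts in *Sykdel/del* and 1450, 1394 and 1444 in *Syk+/+*. Here *Sykdel/del* replicate 1 was the highest library instead, and the log2 fold change was -0.02 (95% interval -0.21 to 0.17).

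*Relb*, the partner of p52 and the member with the fewest reads (chromosome 7, 19606217 to 19629438, minus strand), was at 78.7, 96.0 and 98.3 normalized counts in *Sykdel/del* and 84.2, 108.5 and 147 in *Syk+/+*. The *Sykdel/del* libraries lay close together, while *Syk+/+* spread over a range that took in 2 of them. These values rest on 71, 92 and 63 reads in *Sykdel/del* and 90, 113 and 159 in *Syk+/+*. The log2 fold change of -0.28 had a 95% interval of -0.71 to 0.15, and it was -0.08 without *Syk+/+* replicate 3 and -0.47 without *Syk+/+* replicate 1. A change of under 1.02 on the log2 scale could not have passed at that spread.

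Among the subunit transcripts, *Nfkb1* took the largest share of reads per kilobase in all 6 libraries when the exons of the GENCODE basic transcripts set the length. Its share was then 53.4% ± 1.47 in *Sykdel/del* and 52.9% ± 2.04 in *Syk+/+* (SD, n = 3 each). *Rela* had 19.1% ± 1.89 in *Sykdel/del* and 18.6% ± 1.19 in *Syk+/+*, and *Rel* 15.4% ± 1.44 in *Sykdel/del* and 14.4% ± 0.588 in *Syk+/+*. *Nfkb2* had 8.68% ± 0.697 in *Sykdel/del* and 10.2% ± 0.990 in *Syk+/+*, where the libraries overlapped at 9.28% for *Sykdel/del* replicate 2 and 9.14% for *Syk+/+* replicate 1. *Relb* had 3.35% ± 0.383 in *Sykdel/del* and 3.83% ± 0.983 in *Syk+/+* and was the least in every library. The shares turn on the annotation, which is not given for the authors' counting. When exons of all annotated transcripts, retained introns included, set the length (a choice made after the lengths were seen), *Nfkb1* had 30.2% in *Sykdel/del* and 29.9% in *Syk+/+*, close to *Rela* at 27.9% in *Sykdel/del* and 27.1% in *Syk+/+*. On that length *Nfkb1* was no longer first in every library, since *Rela* had 29.8% and *Nfkb1* 29.4% in *Sykdel/del* replicate 3. The *Nfkb2* shares did not overlap there, at 14.08% in the highest *Sykdel/del* library and 14.12% in the lowest *Syk+/+* library.

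**Figure D3:**
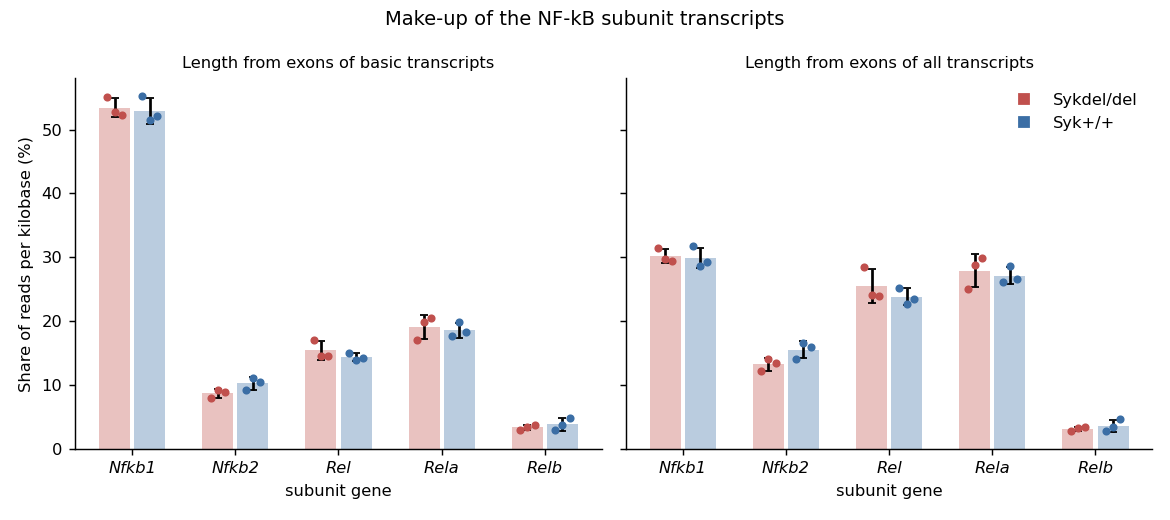
Share of each NF-kB subunit gene in the reads per kilobase of the 5 subunits (vertical axis, %, from 0), as means (bars), SD (error bars) and single libraries (points), with length from basic transcripts on the left and from all transcripts on the right. *Nfkb1* stands at 53.4% in *Sykdel/del* and 52.9% in *Syk+/+* by basic transcripts and at 30.2% in *Sykdel/del* and 29.9% in *Syk+/+* by all transcripts, while *Relb* stays the least in both.

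Per kilobase of basic exon, normalized counts of all 10 genes were ordered alike in both genotypes but for 1 neighbouring pair. *Nfkb1* was highest at 657 ± 19.7 in *Sykdel/del* and 703 ± 10.97 in *Syk+/+*, followed by *Card9* at 375 ± 13.1 in *Sykdel/del* and 395 ± 27.9 in *Syk+/+* and *Nfkbia* at 267 ± 85.1 in *Sykdel/del* and 364 ± 68.6 in *Syk+/+* (SD, n = 3 each). *Bcl10*, *Rela*, *Malt1* and *Rel* followed between 190 and 247 in *Sykdel/del* and between 191 and 247 in *Syk+/+*. Of these, *Bcl10* and *Rela* changed places between genotypes and did not differ beyond their spread. *Nfkb2*, *Nfkbie* and *Relb* closed the order, with *Relb* at 41.2 ± 4.85 in *Sykdel/del* and 51.2 ± 14.2 in *Syk+/+*. With exons of all transcripts *Card9* led instead and *Malt1* was the last but 1.

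The inhibitor genes had the lowest libraries in *Sykdel/del* replicate 1. *Nfkbia* encodes IkB-alpha, which holds p50 and p65 dimers in the cytoplasm and is resynthesized after each round of activation (chromosome 12, 55489410 to 55492647, minus strand). Its normalized count was 278, 441 and 545 in *Sykdel/del* and 488, 696 and 540 in *Syk+/+*. *Sykdel/del* replicate 1 lay far below all other libraries, and *Sykdel/del* replicate 3 lay inside the range of *Syk+/+*. The log2 fold change of -0.48 (standard error 0.20, 95% interval -0.91 to -0.05) had an unadjusted p of 0.030 and an adjusted p of 0.824 from limma. Without *Sykdel/del* replicate 1 that difference was -0.21, with an unadjusted p of 0.148 from limma. Without *Sykdel/del* replicate 3 it was -0.70.

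*Nfkbie*, which encodes IkB-epsilon, an inhibitor of p65 and c-REL dimers (chromosome 17, 45555703 to 45563169, plus strand), was at 171, 239 and 219 normalized counts in *Sykdel/del* and 209, 287 and 252 in *Syk+/+*. Replicate 1 was the lowest library of both genotypes, and the genotypes overlapped. On the log2 scale the difference was -0.25 (95% interval -0.58 to 0.07, unadjusted p = 0.119 and adjusted p = 1.00 from limma). Relative to *Rela* in the same library, the log2 ratio of *Nfkbia* was -1.01, -0.62 and -0.31 in *Sykdel/del* and -0.34, -0.06 and -0.32 in *Syk+/+*, which overlapped. Relative to *Rel*, that of *Nfkbie* was -3.18, -2.52 and -2.59 in *Sykdel/del* and -2.79, -2.28 and -2.51 in *Syk+/+*, which overlapped too.

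Several of the 10 genes shared their lowest library. *Sykdel/del* replicate 1 was the lowest of the 6 libraries for 6 genes, namely *Card9*, *Nfkb2*, *Rela*, *Relb*, *Nfkbia* and *Nfkbie*, and the highest for *Malt1* and *Rel*. That library differed most from the others of its genotype, as given above. The share of all genes with their lowest value in it was not counted, so the 6 cannot be called particular to these genes. In that library *Nfkbia* was 1.03 below the *Syk+/+* mean on the log2 scale, *Nfkbie* 0.53, *Nfkb2* 0.49 and *Relb* 0.48 below it, while *Malt1* was 0.22 and *Rel* 0.12 above it. *Syk+/+* replicate 1 was the lowest *Syk+/+* library for *Nfkb2*, *Rela*, *Relb*, *Nfkbia* and *Nfkbie* as well. All 3 *Sykdel/del* libraries of *Nfkb1* were below the *Syk+/+* mean, by 0.07 to 0.15 on the log2 scale. The low sum of immediate early genes in *Sykdel/del* replicate 1 is given above, and its part in these values was not tested.

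**Figure D4:**
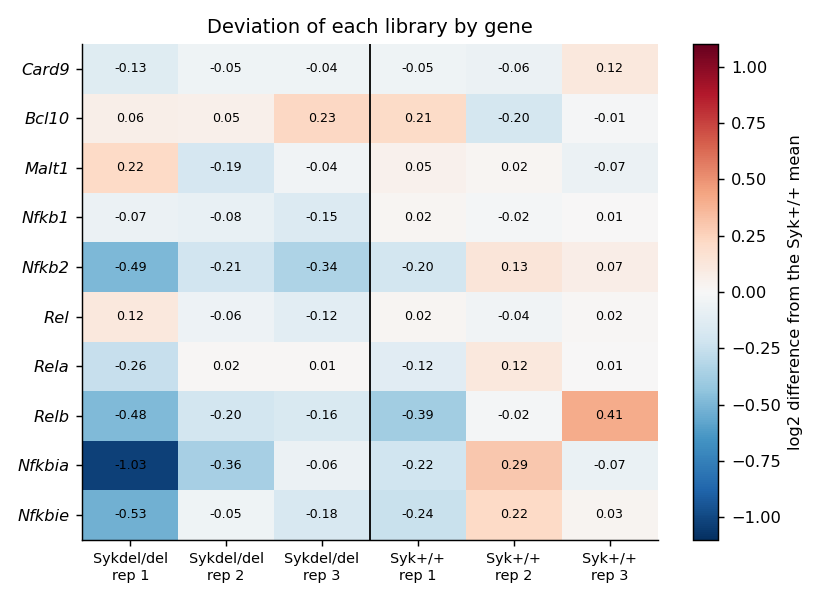
Difference of each library from the *Syk+/+* mean of the gene on the log2 scale (colour and printed value), with genes down the page and the *Sykdel/del* libraries left of the *Syk+/+* libraries. *Sykdel/del* replicate 1 holds the lowest values of *Nfkbia*, *Nfkbie*, *Nfkb2*, *Relb*, *Rela* and *Card9* and the highest of *Malt1* and *Rel*.

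For *Card9* and *Nfkbia* the genes with the most similar pattern over the 6 libraries were taken from the 9987 genes whose normalized counts averaged 20 or more, by the root mean square difference of centred log2 values. Nearest to *Card9* were *Galnt10* (0.022), *Actr1b* (0.024) and *Slc38a10* (0.028), whose log2 fold changes were -0.07, -0.05 and -0.05. Nearest to *Nfkbia* were *Sdc3* (0.083), *Pilrb2* (0.088) and *Ifi206* (0.091). *Sdc3*, a syndecan of the cell surface, was at 652, 967 and 1272 normalized counts in *Sykdel/del* and 1128, 1437 and 1341 in *Syk+/+*, with a log2 fold change of -0.48 close to that of *Nfkbia* and an adjusted p of 0.761 from limma.

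Upstream of the complex no gene passed either. Of 7 genes of CARD9-coupled receptors and their chains, 0 were lower, 0 higher and 7 did not pass (limma), with 0 at an unadjusted p under 0.05 and a median of -0.06 on the log2 scale. *Clec7a*, which encodes the beta-glucan receptor dectin-1, was at 1255, 1620 and 1771 normalized counts in *Sykdel/del* and 1440, 1171 and 1322 in *Syk+/+* (log2 fold change 0.23). Its highest libraries were *Sykdel/del* replicates 2 and 3, and replicate 1 lay inside the range of *Syk+/+*. *Fcer1g*, which encodes the shared signalling chain, had a log2 fold change of -0.09, *Clec5a* one of 0.12, and *Clec4d*, under 10 normalized counts on average, one of -0.87.

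Of 21 genes from SYK to the IKK kinases 0 were lower, 0 higher and 21 did not pass (limma), with a median of -0.03. At an unadjusted p under 0.05, 2 were lower and 0 higher, beside 3.32% and 1.94% of all genes. Those 2 were *Card10*, the relative of *Card9* outside the blood, and *Map3k14*, which encodes the kinase NIK of the non-canonical pathway that processes p100. *Card10* was at 35.5, 50.1 and 59.3 normalized counts in *Sykdel/del* and 66.4, 76.8 and 71.1 in *Syk+/+*, a log2 fold change of -0.58 with an adjusted p of 0.695 from limma. *Map3k14* was at 585, 643 and 579 normalized counts in *Sykdel/del* and 600, 804 and 795 in *Syk+/+*, a log2 fold change of -0.27 with an adjusted p of 0.860 from limma. The genotypes were apart for *Card10*, as for 5.19% of all genes in that direction, and overlapped for *Map3k14*. *Traf3*, which restrains NIK, had a log2 fold change of -0.16 and *Tab1*, a partner of the kinase TAK1, one of 0.18.

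Among the 4 remaining genes of IkB proteins none passed. Their median was -0.29 on the log2 scale, and 2 were lower at an unadjusted p under 0.05, where 3.32% of all genes were. *Bcl3*, a nuclear IkB protein that binds p50 and p52, was at 163, 382 and 318 normalized counts in *Sykdel/del* and 316, 611 and 407 in *Syk+/+* (log2 fold change -0.66, adjusted p = 0.831 from limma). *Nfkbiz*, which encodes the inducible IkB-zeta, was at 419, 697 and 629 normalized counts in *Sykdel/del* and 625, 1180 and 723 in *Syk+/+* (log2 fold change -0.51, adjusted p = 0.840 from limma). In both genes *Sykdel/del* replicate 1 was the lowest library and *Syk+/+* replicate 2 the highest, and the genotypes overlapped. *Nfkbid* and *Nfkbib* had log2 fold changes of 0.08 and -0.07.

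Of 12 brakes on NF-kB and 6 genes of linear ubiquitin and IAP proteins, 0 were lower and 0 higher by limma, with 0 at an unadjusted p under 0.05 in each list and medians of -0.03 and -0.02. *Tnip1*, which encodes a partner of the deubiquitinase A20, had the smallest p of the brakes, at a log2 fold change of -0.19, and *Tnip2*, *Usp18* and *Commd1* had -0.13, -0.12 and 0.17. *Birc2*, which encodes the ubiquitin ligase cIAP1, was at 269, 240 and 248 normalized counts in *Sykdel/del* and 202, 237 and 208 in *Syk+/+*, a log2 fold change of 0.23 with an adjusted p of 0.971 from limma. Every *Sykdel/del* library was above every *Syk+/+* library there, as for 4.94% of all genes. The ligase gene *Rnf31* had a log2 fold change of -0.18, and *Sharpin* and *Rbck1*, its partners in the linear ubiquitin complex, had 0.10 and -0.06.

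Of 24 NF-kB target genes 20 were tested, of which 1 was lower (0.349% of all genes were), 0 were higher and 19 did not pass. The list had a median of -0.12 on the log2 scale. At an unadjusted p under 0.05, 4 of its genes were lower and 1 higher, beside 3.32% and 1.94% of all genes. The gene that fell was *Il1b*, which encodes the cytokine interleukin-1 beta, at 13.3, 21.9 and 21.8 normalized counts in *Sykdel/del* and 50.5, 75.9 and 52.6 in *Syk+/+*. The genotypes lay wide apart, and the difference was -1.61 on the log2 scale with a standard error of 0.27 (limma, adjusted p = 0.023). That call ended without *Sykdel/del* replicate 2 (adjusted p = 0.065 from limma) and without any 1 of the *Syk+/+* libraries (adjusted p = 0.11 without replicate 1, 0.20 without replicate 2 and 0.071 without replicate 3), with log2 fold changes of -1.43 or below in all 4. Without *Sykdel/del* replicate 1 the list had 4 genes past the threshold, where 75 of all 14023 genes passed. Without *Sykdel/del* replicate 3 the list had 2, where 49 of all 14023 genes passed.

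Other target genes had lower values in *Sykdel/del* without passing. *Traf1*, an adaptor of TNF receptors, was at 5.5, 9.4 and 23.4 normalized counts in *Sykdel/del* and 33.7, 77.8 and 39.7 in *Syk+/+* (log2 fold change -2.03, adjusted p = 0.10 from limma). *Cd83*, a surface protein of activated antigen-presenting cells, was at 4.4, 23.0 and 23.4 in *Sykdel/del* and 47.7, 65.3 and 39.7 in *Syk+/+* (log2 fold change -1.79, adjusted p = 0.253 from limma). *Vcam1*, which is also on the list of resident macrophage markers, was at 107.5, 29.2 and 73.3 in *Sykdel/del* and 159, 122 and 147 in *Syk+/+* (log2 fold change -1.19, adjusted p = 0.317 from limma). In these 3 genes the genotypes did not overlap, as in 5.19% of all genes in that direction. In the other direction *Ptgs2*, which encodes the prostaglandin enzyme COX-2, was at 3.3, 39.6 and 29.7 in *Sykdel/del* and 1.9, 4.8 and 5.5 in *Syk+/+* (log2 fold change 1.87, adjusted p = 0.718 from limma). There *Sykdel/del* replicate 1 lay inside the range of *Syk+/+*. *Ptgs2* was named after its values were seen, as the 1 target gene higher at an unadjusted p under 0.05. The non-classical and resident macrophage markers were lower in the same *Sykdel/del* libraries, with the sums given above, and their part in the values of the target genes was not tested.

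**Figure D5:**
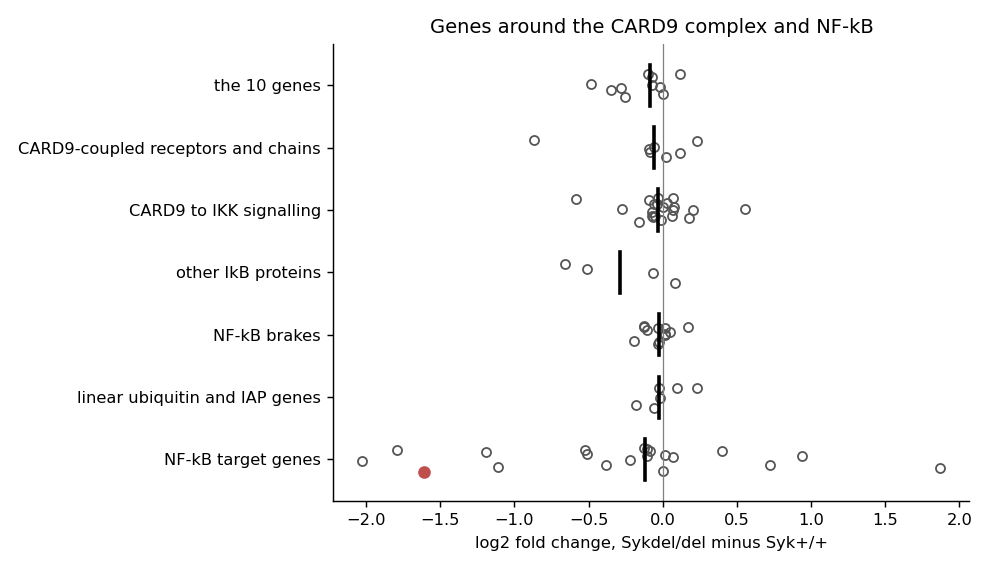
Log2 fold change, *Sykdel/del* minus *Syk+/+*, of every tested gene (points) in the 10-gene family and the lists around it, with the median of each list as a black bar and genes with an adjusted p under 0.05 filled. *Il1b*, at -1.61, is the filled point, and the list medians lie between -0.29 and -0.02.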

How the data were processed

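RNA of bone marrow monocytes, isolated with a kit that removes other cells, was sequenced by the authors from rRNA-depleted directional libraries in 3 *Sykdel/del* and 3 *Syk+/+* samples. Mapping of the paired-end reads to GRCm38/mm10 and counting by gene were done by the authors in CLC Genomics Workbench. Its version, the annotation and the strand setting were not given in the sources used. Values were deposited as log2(x + 1). The methods name TPM, but x was a whole multiple of 1 step per library for 99.97% to 100% of values (tolerance 0.06 of a read), so x in the deposited values is a scaled read count. The deposited p-values of the authors' own comparison were not used.

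limma 3.58.1 (R 4.3.3, eBayes with trend, two-sided) was fitted to genes that reached a normalized count of 1 in 3 or more libraries, with Benjamini-Hochberg adjustment and 0.05 as the threshold, and checked on simulated counts. Coordinates and exon lengths are from GENCODE M21 (GRCm38), promoters from RefSeq (GRCm38.p6). The 10 genes and all lists were chosen with earlier results of these data known. Named genes are the 10, *Syk*, from each pathway list the 4 of smallest p and any past the threshold, and the 3 nearest patterns to *Card9* and *Nfkbia*. Same-numbered libraries showed little shared deviation over all genes (r across 9987 genes of 0.04, 0.04 and -0.02). Such values cannot exclude a link between same-numbered libraries in some genes. The main fit left the replicate number out, and the fit with it as a block is given below. Alternatives were other scalings, pseudocounts of 0.5 and 5, filters, limma without trend, limma-voom, a replicate block, thinned reads and each library left out.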

Additional observations from a re-analysis of the deposited data

How the results depend on the processing

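None of the 10 genes passed under any of 18 alternatives, and the lowest adjusted p from limma was 0.235. Of 180 values, 166 kept their direction and 14 changed sign, all in *Malt1*, *Rel* and *Rela*, while the other 7 genes kept theirs. The log2 fold change of *Malt1* became 0.0074 with upper-quartile rescaling, 0.012 with quantile normalization, 0.00015 with limma-voom and 0.0069 with thinned reads under both filters, and that of *Rel* 0.014 with thinned reads under both filters. Without 1 library *Malt1* ranged from -0.11 to 0.092, *Rel* from -0.086 to 0.032 and *Rela* from -0.14 to 0.014. Of the other named genes, *Fcer1g* ranged from -0.21 to 0.063, *Nfkbib* from -0.16 to 0.058 and *Rbck1* from -0.11 to 0.014, all 3 positive without *Sykdel/del* replicate 1, and *Nfkbid* from -0.053, without *Syk+/+* replicate 1, to 0.17. The count of all genes past the threshold, 52, was 6 without the trend, 34 with limma-voom, 0 with thinned reads under the main filter, 39 with thinned reads and a mean of at least 5, and 4 to 75 without 1 library. It was 18 when *Sykdel/del* replicate 2 was left out, and 5, 4 and 34 when the *Syk+/+* libraries were left out in the order 1, 2, 3. A replicate block gave 53 genes and 3 of the 10 at an unadjusted p under 0.05 (*Nfkb2*, *Nfkbia*, *Nfkbie*), but no adjusted call among the 10. *Nfkb2* kept an unadjusted p under 0.05 under all 18 alternatives, and *Nfkbia* lost it without the trend, with thinned reads under the main filter, without *Syk+/+* replicate 2 and without *Sykdel/del* replicate 1. *Relb* and *Nfkbie* gained it without *Syk+/+* replicate 1. The cause of these shifts was not tested. Of the target genes none passed without the trend or with thinned reads under either filter, and 0 to 4 did without 1 library. Without *Sykdel/del* replicate 1, 4 of the 20 tested immediate early genes passed, against 0 with it. In the fit without that library 75 of all 14023 genes passed, 50 lower and 25 higher.

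Unscaled reads gave subunit shares of 51.1% for *Nfkb1* in *Sykdel/del*, 26.7% in *Sykdel/del* and 25.1% in *Syk+/+* for *Rel*, 12.05% in *Sykdel/del* and 11.8% in *Syk+/+* for *Rela*, and 1.72% in *Sykdel/del* and 1.98% in *Syk+/+* for *Relb*. Exons of all transcripts, chosen after the data were seen, gave 30.2% in *Sykdel/del* and 29.9% in *Syk+/+* for *Nfkb1*, 13.2% in *Sykdel/del* and 15.6% in *Syk+/+* for *Nfkb2*, 25.5% in *Sykdel/del* and 23.8% in *Syk+/+* for *Rel*, and 27.9% in *Sykdel/del* and 27.1% in *Syk+/+* for *Rela*. Of the 10 genes *Relb* had the fewest reads, 63 in the shallowest library.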
